A study of Mus musculus with 25 samples.

Results

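Ebf1, Ebf2 and Ebf3, genes of the early B-cell factor (Ebf) family of transcription factors, were followed through 8 compartments of the embryonic mouse palate. The 3 genes were taken by their gene symbols from a table of 37406 genes, of which 22399 were above 0 in at least 1 library. The family was chosen by measured values of these libraries, and the sources used here do not record which. They were taken to be the anterior contrasts, lateral against medial for Ebf1 and oral against nasal for Ebf3, so the members' values there are a description with no test. Levels in the other compartments were also known when the members were chosen. The p-values given for the posterior palate and the long axis therefore describe the fit and are no independent support.

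Palatal shelves of wild-type CD1 mouse embryos at E14.5, when the shelves meet above the tongue, were cut by laser capture microdissection (LCM) and measured by RNA-seq. Each region, anterior and posterior, gave medial, lateral, oral and nasal libraries, 25 in all, in triplicate except for 4 anterior nasal libraries. Medial and lateral divide a shelf across its width, and oral and nasal divide it into a lower and an upper part, so the compartments of one division overlap those of the other. By the labels, no group carries a mutation or received a treatment. The number of embryos behind a library is not given in the sources used here, and the p-values measure the spread between these libraries. The names of some alignments carry ERK2_WT or Tgfbr2_WT.

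Ebf proteins bind DNA as dimers and recognise a nearly palindromic site. Ebf1 is best known as a factor that commits lymphoid progenitors to the B-cell lineage, Ebf2 as a factor of brown fat precursors and of bone marrow and bone stroma, and Ebf3 as a factor of neuronal differentiation. Ebf genes are also active in embryonic mesenchyme, including that of neural crest origin, from which most of the palate is made. Zfp423 and Zfp521 are zinc finger proteins that bind Ebf proteins and modulate their activity.

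The table gives 1 value per gene in RPKM (a read count divided by transcript length and by library size), so a value pools all starts of a gene. On mm9, Ebf1 (gene ID 13591) spans chr11:44431636-44818674, Ebf2 (13592) chr14:67852129-68048604 and Ebf3 (13593) chr7:144385354-144506128. RefSeq promoter sequences on GRCm38.p6 matched 2 of the 3 genes, Ebf1 with 2 starts and Ebf3 with 1. The 150 bases before the downstream start of Ebf1, which lie outside annotated exons at chr11:44620078-44620227 on the + strand, and before the start of Ebf3, at chr7:137314446-137314595 on the - strand, are shown for the members that had an entry. Capitals mark a match to TCCCNNGGG, the core of the Ebf site, searched on both strands.
Ebf1: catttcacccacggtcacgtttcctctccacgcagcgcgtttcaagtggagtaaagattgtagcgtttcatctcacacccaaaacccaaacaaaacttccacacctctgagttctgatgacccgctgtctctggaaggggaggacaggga
Ebf3: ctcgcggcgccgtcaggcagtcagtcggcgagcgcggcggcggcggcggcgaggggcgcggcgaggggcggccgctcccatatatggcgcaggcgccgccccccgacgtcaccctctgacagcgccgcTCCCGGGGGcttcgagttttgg
The Ebf3 match starts 22 bases before the annotated start, and neither Ebf1 start had a match within 250 bases upstream. Of 32851 promoter windows of that length, 5.60% held a match. The bases shown are 78.0% G or C before Ebf3 and 51.3% before this start of Ebf1, against a median of 54.0% over all windows.

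The values imply library totals of 1.64 to 6.56 M reads, the median library having 3.27 M. These are the totals by which RPKM was scaled, not the reads sequenced. The paper gives a much higher average of reads per sample and removed duplicate and multiply aligned reads. Ebf1 was covered by about 265 reads in the median library, Ebf3 by about 270 and Ebf2 by about 25.3, taking the longest annotated transcript as the length. Posterior medial replicate 2 stood apart, with 12935 genes above 0 against 16330 to 20605 in the other libraries. There Ebf1 was at 0.0744 RPKM, about 1 read. No sequencing run held both lateral and medial libraries, so run and compartment cannot be told apart in that contrast, whereas anterior oral and nasal libraries shared runs. The annotation places 1 gene on the opposite strand within Ebf1, 5 within Ebf2 and 2 within Ebf3, and exons of Gm10860 overlap those of Ebf2 and exons of Gm45278 those of Ebf3. No strand setting is given in the sources used here, so reads of these pairs cannot be told apart.

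Ebf3 was the most abundant member, with a mean of 19.0 RPKM over the 25 libraries, above 79.8% of the genes detected. Ebf1 averaged 14.3 RPKM, above 73.4% of genes, and Ebf2 1.74 RPKM, above 41.4%. RPKM is scaled to transcript length, so these levels can be set side by side only roughly. No correction was made for amplification or for reads of the genes that overlap Ebf2 and Ebf3 on the opposite strand.

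**Figure D1:**
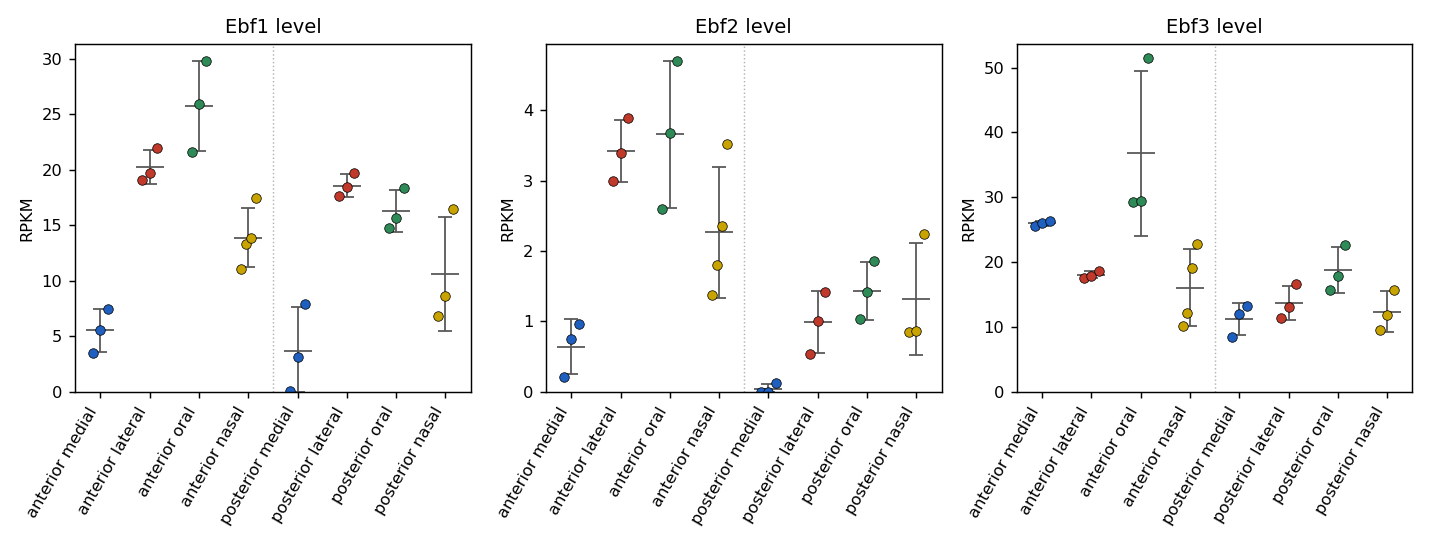
Level of Ebf1, Ebf2 and Ebf3 in RPKM (vertical axis, linear, each panel with its own range) in the 8 compartments (horizontal axis). Each point is a library, the bar is the mean and the whiskers are 1 SD, cut at 0. Ebf1 and Ebf2 were lowest in the medial compartments of both regions, whereas Ebf3 in anterior medial, at 25.6 to 26.3 RPKM, was second only to anterior oral by mean.

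Ebf1 was high in oral and lateral compartments and low in medial ones. Anterior oral libraries had 29.8, 25.9 and 21.6 RPKM (25.8 ± 4.09, SD, n = 3), and anterior lateral libraries had 22.0, 19.1 and 19.7 RPKM (20.3 ± 1.52, n = 3). Anterior medial libraries had 7.45, 3.54 and 5.59 RPKM (5.52 ± 1.96, n = 3). Every anterior lateral library lay above every anterior medial one.

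In the posterior palate Ebf1 was at 19.7, 18.4 and 17.6 RPKM in lateral (18.6 ± 1.05, n = 3) and at 7.92, 0.0744 and 3.11 RPKM in medial libraries (3.70 ± 3.96, n = 3). The 3 posterior lateral values were close together and the 3 medial values were not, but the groups did not overlap. Nasal libraries were in between, at 11.1 to 17.4 RPKM in 4 anterior libraries (13.9 ± 2.64) and at 16.4, 6.81 and 8.62 RPKM in the posterior ones (10.6 ± 5.11, n = 3). Posterior oral libraries had 15.6, 18.4 and 14.8 RPKM (16.3 ± 1.89, n = 3). By mean the order ran anterior oral, anterior lateral, posterior lateral, posterior oral, anterior nasal, posterior nasal, anterior medial and posterior medial, and the ranges of all neighbours in this order overlapped.

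On the scale of log2(RPKM + 0.1), Ebf1 was 1.92 ± 0.25 (SE) higher in anterior lateral than in anterior medial, or 3.78-fold. The same difference in the posterior palate was 3.50 ± 1.35, with an unadjusted p of 0.0387 and an adjusted p of 0.957 in the limma fit over 10325 genes. That fit called 0% of genes at an adjusted p of 0.05, 0 in all against 160 at an unadjusted p under 0.05. Ebf1 and Ebf2, 2 of the 3 members, had posterior lateral and medial groups that did not overlap, as had 6.62% of the genes tested. Without posterior medial replicate 2 the Ebf1 difference was 1.88 ± 0.40 with an adjusted p of 0.734, close to the anterior value. Within the run that held 5 of the 6 medial libraries, Ebf1 reached 0.0744 to 7.45 RPKM in medial libraries, 14.8 and 18.4 in posterior oral libraries and 6.81 in a posterior nasal one.

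Between oral and nasal tissue, Ebf1 was 0.89 ± 0.25 higher orally in the anterior palate, or 1.85-fold, and the groups did not overlap. Within the 3 runs shared by anterior oral and nasal libraries this log2 difference was 0.57 to 1.26, positive in each. In the posterior palate it was 0.71 ± 0.33 with an adjusted p of 0.694, and the groups overlapped. Posterior nasal replicate 1, at 16.4 RPKM, was as high as the oral library of its run, at 15.6 RPKM. In the other shared run the oral mean was 16.6 against 6.81 RPKM.

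Ebf2, the least abundant member, was ordered much like Ebf1 across the medial-lateral division. Like Ebf1 and Ebf3, it had a lower mean in the posterior palate in every compartment. Anterior oral libraries had 4.69, 2.60 and 3.68 RPKM (3.66 ± 1.05, n = 3), anterior lateral 3.88, 3.00 and 3.39 RPKM (3.42 ± 0.443, n = 3) and anterior nasal 1.38 to 3.53 RPKM (2.27 ± 0.929, n = 4). Anterior medial libraries had 0.967, 0.205 and 0.749 RPKM. Posterior medial libraries were listed at 0.122, 0 and 0 RPKM, and the highest of these stands for about 3.4 reads.

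Posterior lateral libraries had 1.00, 1.42 and 0.543 RPKM of Ebf2, posterior oral 1.03, 1.41 and 1.86 RPKM, and posterior nasal 2.24, 0.859 and 0.856 RPKM. Those groups overlapped one another, and none reached the anterior lateral range. Neighbours in the order of Ebf2 means overlapped except the last pair, anterior medial and posterior medial. Ebf2 did not meet the expression minimum of 5 RPKM in 3 libraries in any comparison and was added to each fit.

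The anterior lateral minus medial difference of Ebf2 was 2.43 ± 0.43 on the log2 scale (5.38-fold), and 1.46 with a pseudocount of 1. The posterior difference was 2.98 ± 0.48, with an unadjusted p of 0.000673 and a limma adjusted p of 0.772. In a fit of all 25 libraries, which shares 1 estimate of spread, the adjusted p was 0.00382. The size of this difference rests on values at or near 0: it was 0.91 with a pseudocount of 1, 5.30 with a pseudocount of 0.01 and 0.24 after quantile normalization. Oral minus nasal differences were 0.71 ± 0.36 in the anterior and 0.21 ± 0.39 in the posterior palate (adjusted p of 0.999), with overlapping groups in both. Paired by replicate number, Ebf2 was higher orally in all 3 anterior pairs. The values were 4.69 against 1.81, 2.60 against 1.38 and 3.68 against 2.35 RPKM. This leaves out anterior nasal replicate 4, at 3.53 RPKM. The pairing is also uncertain, as oral and nasal replicates 2 came from different runs, and so did replicates 3. Within the 3 shared runs the anterior difference was 0.06, 0.14 and 1.51. With the replicate block, which gives anterior nasal replicate 4 no weight, the anterior difference was 0.94 ± 0.29. Without replicate 4 and with no block it was 0.94 ± 0.32. In the posterior palate the 2 shared runs gave opposite signs, -1.05 and 0.84.

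Ebf3 went the other way from Ebf1 and Ebf2 across the anterior shelf. Anterior medial libraries had 25.6, 26.3 and 26.1 RPKM (26.0 ± 0.358, n = 3) and anterior lateral libraries 18.7, 17.9 and 17.6 RPKM (18.1 ± 0.560, n = 3). Each medial library was above each lateral one, a log2 difference of -0.52 ± 0.10 for lateral minus medial, or 1.43-fold higher in medial. All 3 members had anterior lateral and medial groups that did not overlap, as had 21.3% of the 10428 genes tested. At an adjusted p of 0.05 limma called 2.53% of those genes, or 264.

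In the posterior palate the Ebf3 values of lateral libraries, 13.1, 16.6 and 11.4 RPKM (13.7 ± 2.64, n = 3), overlapped those of medial libraries, 11.96, 13.3 and 8.43 RPKM (11.2 ± 2.51, n = 3). The log2 difference was 0.29 ± 0.31 with an adjusted p of 0.957. Posterior medial replicate 2, where Ebf1 was at 1 read, had the highest Ebf3 value of its group. Its RPKM values over all genes also summed highest, to 350566 against 273338 to 307326 in the other libraries, and no scaling was added.

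Ebf3 was highest in the anterior oral compartment, at 51.5, 29.5 and 29.3 RPKM (36.8 ± 12.8, n = 3), with replicate 1 well above the others. That library had the lowest implied total, 1.64 M reads, and also the highest Ebf1 and Ebf2 values of all 25. By mean the anterior oral compartment was followed by anterior medial, posterior oral, anterior lateral, anterior nasal, posterior lateral, posterior nasal and posterior medial. Anterior oral and anterior medial did not overlap, nor did anterior medial and posterior oral, and the other neighbours overlapped. Anterior nasal libraries had 10.1 to 22.7 RPKM (16.1 ± 5.91, n = 4). The oral minus nasal difference was 1.21 ± 0.36 on the log2 scale, or 2.32-fold, and 1.41 ± 0.27 with the replicate block. That block gives no weight to anterior nasal replicate 4, the highest nasal library at 22.7 RPKM. Without replicate 4 and with no block the difference was 1.41 ± 0.36. It was 0.94 without anterior oral replicate 1, where the median difference of all genes was 0.10. Ebf1 and Ebf3 had anterior oral and nasal groups that did not overlap, as had 3.67% of the 10685 genes tested. In that contrast limma called 0% of the genes at an adjusted p of 0.05, 0 genes against 318 at an unadjusted p under 0.05. Within the 3 shared runs the Ebf3 difference was 0.36, 1.54 and 1.75.

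Posterior oral libraries had 22.7, 15.7 and 17.9 RPKM of Ebf3 (18.8 ± 3.55, n = 3) and posterior nasal libraries 15.7, 9.47 and 11.9 RPKM (12.4 ± 3.14, n = 3). The lowest oral value was just above the highest nasal one. The log2 difference was 0.61 ± 0.26, with an unadjusted p of 0.0448 and a limma adjusted p of 0.588, and was 0.53 and 0.82 within the 2 shared runs. None of the 3 members was called in this contrast, in which limma called 1.25% of 10587 genes. Only Ebf3 of the 3 had groups that did not overlap, as had 11.8% of the genes tested.

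**Figure D2:**
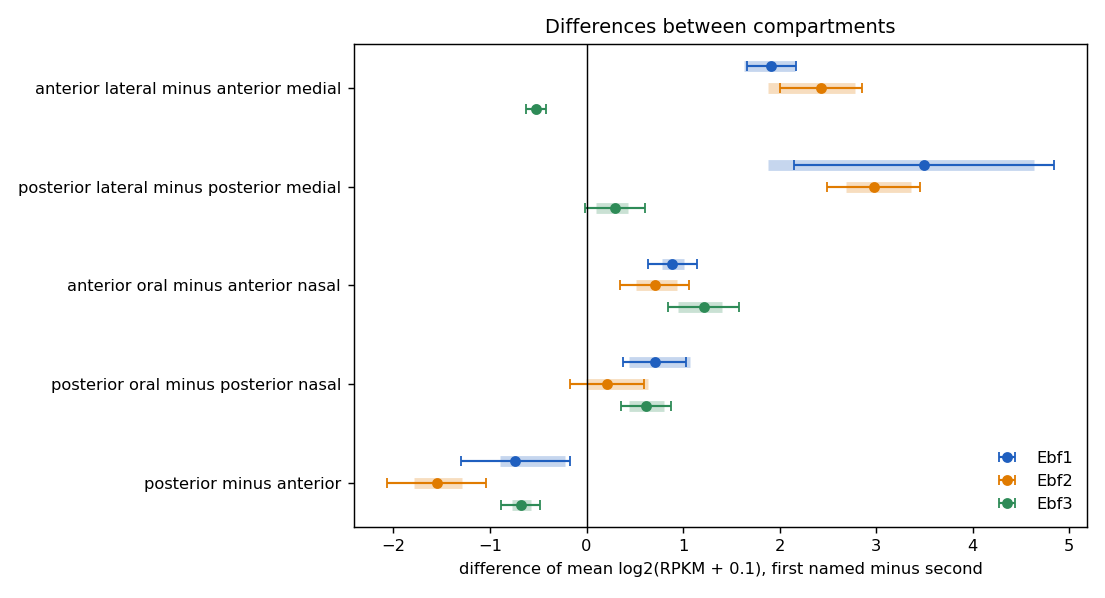
Differences of mean log2(RPKM + 0.1) for Ebf1, Ebf2 and Ebf3 (horizontal axis) in 5 comparisons (vertical axis), each as the compartment named first minus the second. Points are the fitted differences, whiskers 1 SE, and shaded bars the range when each library was left out in turn. Ebf1 and Ebf2 lie right of 0 in both lateral minus medial contrasts, Ebf3 lies left of 0 in the anterior one, at -0.52.

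Along the long axis of the palate all 3 members had lower means in posterior than in anterior libraries. Ebf3 averaged 14.0 RPKM over 12 posterior and 23.6 RPKM over 13 anterior libraries. Its log2 difference was -0.68 ± 0.20, with an unadjusted p of 0.00194 and an adjusted p of 0.0557, just above the threshold of 0.05. That limma fit pooled the compartments with no term for them, so its spread includes differences between compartments. In the fit by compartment the Ebf3 difference was -0.73 ± 0.14. The adjusted p was 0.0416 with each library centred on its median, 0.0324 after quantile normalization and 0.00292 in a fit of all 25 libraries by compartment, but 0.0912 with no expression minimum and 0.318 with run as a covariate, so the call depended on the model.

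Ebf2 averaged 0.945 RPKM in posterior and 2.48 RPKM in anterior libraries, a log2 difference of -1.55 ± 0.52 with an adjusted p of 0.108. Its adjusted p was 0.000172 in the fit of all 25 libraries and 0.0447 with run as a covariate, but 0.237 after quantile normalization and 0.693 with a mean-variance trend. Ebf1 averaged 12.3 and 16.2 RPKM, a difference of -0.74 ± 0.56 with an adjusted p of 0.583, and of -0.23 without posterior medial replicate 2. No member was called in the pooled main fit, in which limma called 3.32% of 8609 genes. The anterior and posterior ranges of all 3 overlapped, while those of 0.267% of genes did not. Of 12 mural cell markers 7 were tested along this axis and 3 were lower in posterior libraries, Actg2 (-3.17 ± 0.60), Abcc9 (-2.07 ± 0.26) and Rgs5 (-1.89 ± 0.47), and the part of mural cells in the Ebf values was not tested. Of 8 mesenchyme genes, the homeobox gene Meox2 (3.57 ± 0.29) and the collagen gene Col1a1 (0.46 ± 0.12) were higher in posterior and the homeobox gene Prrx1 (-0.69 ± 0.18) in anterior libraries, and of 3 cartilage genes tested Col2a1 (31.3 against 14.7 RPKM) was higher in posterior.

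Set compartment by compartment, the posterior minus anterior difference of Ebf3 was -1.23 ± 0.29 in medial, -0.93 ± 0.29 in oral, -0.41 ± 0.29 in lateral and -0.33 ± 0.27 in nasal tissue. That of Ebf2 was -2.32 ± 0.48 in medial, -1.77 ± 0.48 in lateral, -1.29 ± 0.48 in oral and -0.79 ± 0.45 in nasal tissue. For both genes the anterior and posterior libraries did not overlap in medial, lateral and oral tissue and overlapped in nasal tissue. Of the genes with 5 RPKM in at least 3 libraries, 11.9% did not overlap in medial, 18.9% in lateral, 8.26% in oral and 20.3% in nasal tissue. That of Ebf1 was -1.71 ± 0.80 in medial, -0.65 ± 0.80 in oral, -0.47 ± 0.75 in nasal and -0.12 ± 0.80 in lateral tissue, and its groups did not overlap in oral tissue. In the 3 runs that held libraries of both regions, the posterior mean log2 value was the lower one for each member, though the compartments sampled in a run differed between the regions. In the run of the medial libraries the posterior mean RPKM was the higher one for Ebf1, 8.63 against 5.52, and for Ebf2, 0.826 against 0.640, and the log2 sign there rested on posterior medial libraries at or near 0. These compartment values are a description.

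The make-up of the family differed between compartments. Ebf3 took 81.1% ± 6.17 of the summed RPKM of the 3 genes in anterior medial and 43.3% ± 1.43 in anterior lateral libraries (SD, n = 3 each). The ratio of Ebf1 to Ebf3 was 0.213 ± 0.0783 in anterior medial and 1.12 ± 0.0557 in anterior lateral, 0.346 ± 0.329 in posterior medial and 1.38 ± 0.239 in posterior lateral libraries. The posterior medial libraries alone ranged from 0.00560 to 0.662. Oral and nasal compartments had ratios of 0.731 to 1.01 by mean. The 3 genes summed to 66.2 ± 17.2 RPKM in anterior oral, the highest, and to 15.0 ± 4.45 RPKM in posterior medial, the lowest. The anterior oral sums were 85.9 RPKM in replicate 1, the library of lowest implied total, and 58.0 and 54.6 RPKM in the others.

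**Figure D3:**
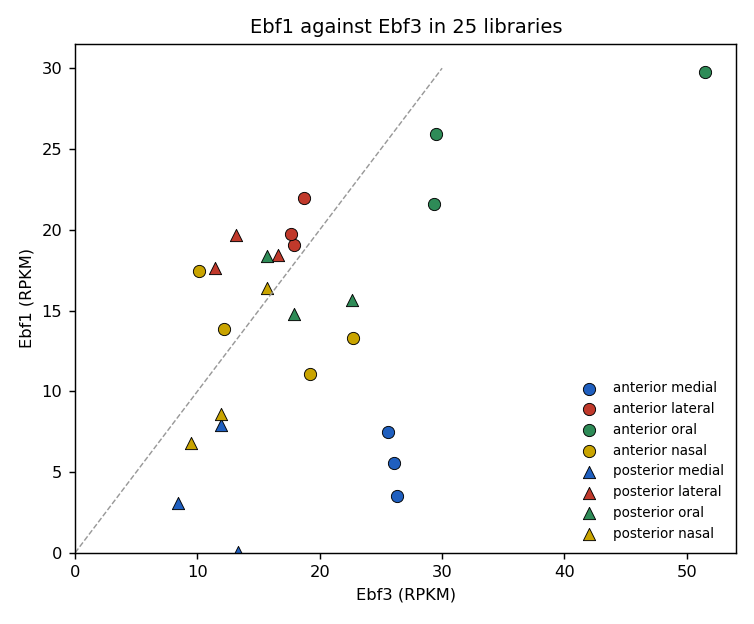
Ebf1 (vertical axis, RPKM) against Ebf3 (horizontal axis, RPKM) in each of 25 libraries, coloured by compartment, with circles for anterior and triangles for posterior. The dashed line marks equal levels. All 6 lateral libraries lie above the line and all 6 medial libraries below it.

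Across the 25 libraries the log2 values of Ebf1 and Ebf2 had a Pearson correlation of 0.80, against 0.28 for Ebf1 and Ebf3 and 0.48 for Ebf2 and Ebf3. After each compartment's mean was removed these were 0.44, -0.12 and 0.42. The points share libraries and depth, and the values are a description.

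Ebf4, the remaining member of the gene family (gene ID 228598, mm9 chr2:130121675-130196217), averaged 11.9 RPKM with an SD of 4.37 RPKM. Its compartment means ran from 8.13 ± 0.825 RPKM in posterior medial to 17.7 ± 6.02 RPKM in anterior lateral, and neighbours in that order overlapped. Its posterior lateral and medial groups did not overlap, with a log2 difference of 0.73 ± 0.26 and an adjusted p of 0.957. Ebf4 values did not follow those of Ebf1, with a correlation of 0.26 over 25 libraries.

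Genes whose products work with Ebf proteins were present throughout. Zfp521 averaged 98.1 RPKM, Smarca4, the ATPase of a chromatin remodelling complex, 54.3 RPKM, Zfp423 38.2 RPKM and Cnot3, a subunit of an mRNA deadenylase complex, 21.6 RPKM. With Ebf4 these made a list of 5, of which all 5 were tested and none was called by limma in any of the 5 comparisons, with 1 at an unadjusted p under 0.05 in 3 of them. Zfp521 came closest, in anterior lateral minus medial. It averaged 77.9 RPKM in anterior lateral and 117 RPKM in anterior medial, -0.58 ± 0.13 with an adjusted p of 0.0632. The list's median log2 difference was 0.62 in posterior lateral minus medial, against 0.05 over all genes tested, and between -0.12 and 0.10 in the other comparisons.

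**Figure D4:**
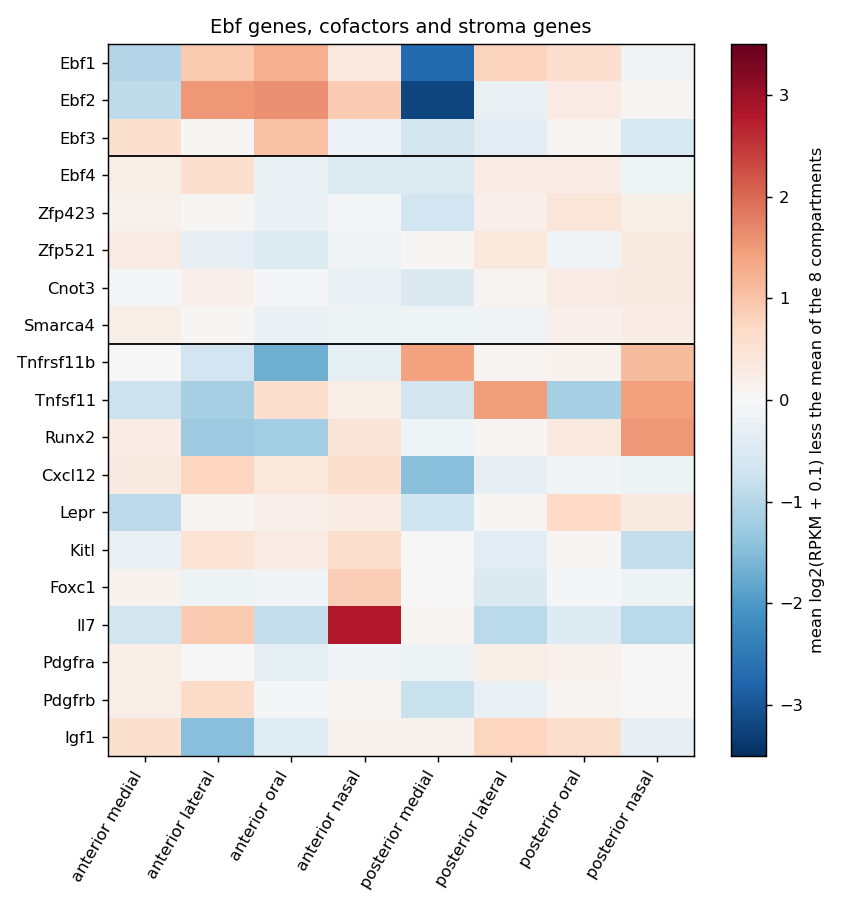
Mean log2(RPKM + 0.1) in each of 8 compartments (columns) less the mean of the 8 compartments, by colour, for Ebf1, Ebf2 and Ebf3 (top), for Ebf4 and cofactors (middle) and for stroma genes linked to Ebf factors (bottom). The low Ebf1 and Ebf2 values of the medial columns stand out against the pale rows of Zfp423, Zfp521, Cnot3 and Smarca4. Il7 and Tnfsf11 averaged under 0.4 RPKM, so their colours rest on few reads.

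Genes known as targets or markers of Ebf activity in other tissues were mostly near 0. Of 13 B-cell genes only Foxo1 (16.7 RPKM) and Tcf3 (43.8 RPKM), which many tissues use, met the minimum, and limma called neither in any comparison, nor did either pass an unadjusted p of 0.05. Pax5, the B-lineage commitment factor, averaged 0.0603 RPKM and was at 0 in 18 libraries. None of 12 fat genes met the minimum. Cebpd (3.52 RPKM) and Prdm16 (3.23 RPKM) were the highest, and Adipoq, the fat cell hormone, was at 0 in 18 libraries, Cidea, a brown fat gene, in 19. Of 4 olfactory neuron genes, Gnal (6.91 RPKM) and Adcy3 (5.09 RPKM) were highest, and 0 to 2 were tested, with no call and none at an unadjusted p under 0.05.

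The list of stroma genes differed between compartments in single members. Of its 12 genes, 11 had a value here and 6 to 8 were tested. In anterior lateral minus medial, Lepr, the leptin receptor, was 1.00 ± 0.11 higher in lateral (limma adjusted p of 0.00515). Runx2, the osteoblast regulator, was higher in medial at 43.3 against 14.6 RPKM, -1.54 ± 0.25 with an adjusted p of 0.0249. Igf1, a growth factor, was also higher in medial, -2.02 ± 0.28 with an adjusted p of 0.0132. In posterior oral minus nasal, Runx2 was higher in nasal, -1.18 ± 0.21 (adjusted p of 0.0419), and in posterior minus anterior Cxcl12, a chemokine, was higher in anterior, -1.01 ± 0.22 (adjusted p of 0.00608). The list's median difference was between -0.28 and 0.51, against -0.03 to 0.05 over all genes.

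Mesenchyme markers were present throughout: all 8 mesenchyme genes were tested in every comparison, none was at 0 in all libraries of a compartment, and their sum lay between 712 and 1565 RPKM. The 8 endothelial genes met the same 2 conditions, with sums between 64.7 and 225 RPKM. Other cell types moved with some of the contrasts in which Ebf levels differed. In bulk tissue, fewer cells of a type and less RNA per cell cannot be told apart. Of 12 mural cell markers 10 were tested in anterior lateral minus medial and 3 were higher in lateral: Myh11, a smooth muscle myosin (3.07 ± 0.19), Actg2, a smooth muscle actin (4.36 ± 0.44), and Abcc9, a pericyte channel subunit (1.23 ± 0.13). Their summed level was 229 to 232 RPKM in anterior lateral and 122 to 180 RPKM in anterior medial. Endothelial markers summed to 173 to 196 RPKM in anterior lateral against 125 to 145 RPKM in anterior medial, with none of 8 called there and 8 at an unadjusted p under 0.05.

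Schwann cell markers summed to 33.8 to 43.0 RPKM in anterior lateral and to 11.8 to 16.4 RPKM in anterior medial, and Sox10, the defining factor of that lineage, was 2.43 ± 0.25 higher in lateral with an adjusted p of 0.00409. In the opposite direction, cartilage genes summed to 26.3 to 28.6 RPKM in anterior lateral and to 77.5 to 126 RPKM in anterior medial, with Sox9 (-2.36 ± 0.20) and Acan (-2.55 ± 0.30) called. Epithelial markers summed to 39.4 to 85.9 RPKM in anterior lateral and to 69.4 to 121 RPKM in anterior medial. Of 5 tested, the keratin gene Krt14 was higher in medial (-2.15 ± 0.28, adjusted p of 0.0104) and Krt8 in lateral (1.36 ± 0.27, adjusted p of 0.0497). Of the neuron genes only Prph was tested, and it was higher in medial (-3.43 ± 0.50, adjusted p of 0.0163). Of the mesenchyme genes Osr2, a palate transcription factor, was higher in lateral (0.96 ± 0.19, adjusted p of 0.0449). The part of these cells in the Ebf differences was not tested.

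In posterior lateral minus medial limma called no marker, and 4 passed an unadjusted p of 0.05. Epithelial markers summed to 20.2 to 36.9 RPKM in lateral and to 58.8 to 123 RPKM in medial libraries, with Krt14 at means of 2.43 and 34.7 RPKM (adjusted p of 0.45). Skeletal muscle markers summed to 20.4 to 161.5 RPKM in lateral, whose top library was the highest of all 25, and to 0.367 to 20.4 RPKM in medial libraries, with Actc1, a striated muscle actin, 3.83 ± 1.65 higher in lateral (adjusted p of 0.957). The muscle sum had the highest correlation with Ebf1 of the lists over the 25 libraries, 0.73. That value includes posterior medial replicate 2 and was not worked out without it. Anterior lateral libraries, with Ebf1 at 19.1 to 22.0 RPKM, had muscle sums of 3.06, 6.55 and 30.1 RPKM. Mural markers summed to 83.4 to 103 RPKM in lateral and 119 to 149 RPKM in medial libraries, a difference led by the smooth muscle actin Acta2, at 11.9 and 65.7 RPKM. The part of these cells in the posterior Ebf values was not tested.

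Endothelial and Schwann sums were also higher orally. In the anterior palate the endothelial sum was 141 to 225 RPKM in oral and 82.1 to 143 RPKM in nasal libraries, and the Schwann sum 47.1 to 69.6 against 10.5 to 27.5 RPKM. In the posterior palate the endothelial sum was 151 to 222 RPKM in oral and 64.7 to 103 RPKM in nasal libraries. Of the endothelial genes Emcn was called there, 1.58 ± 0.28 higher in oral (adjusted p of 0.0401). Bone genes were higher in posterior nasal, at 282 to 456 against 46.9 to 57.2 RPKM in posterior oral, with 3 of 3 tested called, Ibsp (-6.22 ± 1.00), Sp7 (-3.08 ± 0.30) and Alpl (-1.64 ± 0.23). Of 5 cartilage genes tested, only Acan (-3.23 ± 0.43) was called, also higher in posterior nasal. The same held for the neurofilament gene Nefm (-2.77 ± 0.52) of 4 neuron genes and the keratin gene Krt18 (-1.61 ± 0.26) of 4 epithelial genes. The part of these cells in the oral and nasal Ebf values was not tested. No skeletal muscle, macrophage or red cell gene was called in any comparison, and at most 2 of a list passed an unadjusted p of 0.05. By mean the highest of these were Actc1 (15.6 RPKM) and Tnnt1 (6.52 RPKM), Mrc1 (21.8 RPKM) and Lyz2 (19.4 RPKM), and Hbb-y (227 RPKM) and Hba-a1 (112 RPKM).

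The genes whose log2 values followed each member most closely over 25 libraries, among 11914 genes with 5 RPKM in at least 3 libraries, differed between the members. For Ebf2 these were Aldh1a2, which makes retinoic acid (Pearson r of 0.90), Kcna1, a potassium channel (0.88), Cyp1b1, a cytochrome P450 (0.85), Car11 (0.85), Chrdl1, a BMP antagonist (0.84), and Akap12, a signalling scaffold (0.83). Without posterior medial replicate 2, 4 of these 6 remained among the highest 6. Emp1 (-0.81), Ppbp (-0.77) and Ntf3, a neurotrophin (-0.76), had the lowest r with Ebf2.

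For Ebf3 the highest were Fcrl6 (0.74), Unc13b (0.70), Slc44a1, a choline transporter (0.70), 9130206I24Rik (0.69), Chst2, a sulfotransferase (0.69), and Slc25a27, a mitochondrial carrier (0.67), of which 3 remained. The lowest were Nefl, a neurofilament subunit (-0.79), Rpl18 (-0.73) and Clint1 (-0.70). For Ebf1 the highest were Gm9899 (0.93), Adam23 (0.91), Iqgap2 (0.90), 2610018G03Rik (0.90), Zfp90 (0.89) and Timp3, an inhibitor of matrix proteases (0.89), and the lowest Dnaja3 (-0.88), C87436 (-0.88) and Caml (-0.86). Only 1 of the 6 remained without posterior medial replicate 2, and their r with Ebf1 was then 0.57 to 0.81. Over the 8 compartment means 2 of the 6 remained for Ebf1, 1 for Ebf2 and 0 for Ebf3, and with Spearman correlations 1, 3 and 2. All points share libraries, depth and compartments.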

How the data were processed

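The authors deposited RPKM values per gene and library, made in GeneSpring 12.6.1, after LCM, NuGEN Ovation amplification, Nextera library preparation and single-end sequencing of 50 bases, with duplicate and multiply aligned reads removed. The processing notes name TopHat and mm9. One column kept its alignment name in place of the word RPKM and was read as RPKM. No scaling was added.

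Differences were fitted with limma 3.58.1 (R 4.3.3) on log2(RPKM + 0.1), which understates changes of low genes, with Benjamini-Hochberg adjustment over all genes tested. Genes needed 5 RPKM in 3 of the libraries compared, or 10 RPKM in 6 for posterior against anterior. The fits were also run on simulated data, with independent normal values and no run effect or shared shift of a library. Those data therefore do not show how the fits handle such effects here.

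Genes were named by rule: the 3 members, up to 4 called genes per list by size of difference (with none called, the 2 of highest mean), and per member the 6 highest and 3 lowest correlations. The Foxo1, Tcf3, Pax5, Adipoq and Cidea levels and other list levels were picked after their values were seen. The members and lists were chosen with earlier results of these data known. Runs were read from alignment names. Approximate reads came from implied totals and cover counting error only.

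Deviations of libraries with the same replicate number correlated at 0.24, 0.22 and 0.12 in anterior oral and nasal tissue. The numbers were taken to pair those libraries, but oral and nasal replicates 2 came from different runs, as did replicates 3. This pairing is therefore uncertain.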

Additional observations from a re-analysis of the deposited data

How the results depend on the processing

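Of 285 alternative values for the 15 differences of the members, 271 kept their direction and side of the threshold, or moved by less than their spread. Size was not part of this count for tested differences, none of which was called in the main fits. For posterior lateral minus medial, Ebf2 ran from 0.24 to 5.30 and Ebf1 from 1.88 to 4.64. Ebf2 in posterior lateral minus medial was called only in the fit of all 25 libraries, at 2.98. Ebf3 in posterior minus anterior was called with median centring (-0.74), quantile normalization (-0.73) and the fit of all 25 libraries (-0.73), and ranged from -0.77 to -0.58 when each library was left out. It was called without anterior nasal replicate 2, anterior nasal replicate 3 or posterior oral replicate 1, at adjusted p of 0.0275, 0.0159 and 0.0318. Over all its alternatives the adjusted p lay between 0.00292 and 0.318. Ebf2 in the same comparison was called in the fit of all 25 libraries (-1.54) and with run as a covariate (-1.73), and left-out libraries gave -1.78 to -1.30, with a call without anterior medial replicate 2. Its adjusted p lay between 0.000172 and 0.693.

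Ebf2 in posterior oral minus nasal reversed to -0.0023 without posterior nasal replicate 3, and reached 0.64 without another library and 0.85 after quantile normalization. In anterior lateral minus medial, Ebf2 moved to 1.46 with a pseudocount of 1, and Ebf3 to -0.48 after quantile normalization and to -0.80 ± 0.61 with run as a covariate. The cause was not tested. A replicate block changed no member's call. It gave Ebf1 in posterior lateral minus medial 3.50 with a limma adjusted p of 0.915. In posterior minus anterior it gave Ebf3 -0.68 with an adjusted p of 0.0742. There the block joins libraries of the same number across compartments and regions, so it is no check on pairing. It also gives anterior nasal replicate 4 no weight. By replicate number, deviations correlated at 0.23, -0.04 and 0.305 in posterior oral and nasal tissue. They correlated at 0.22, 0.04 and 0.22 in posterior lateral and medial tissue. In anterior lateral and medial tissue the values were 0.01, -0.10 and -0.05. Pairing by replicate number is therefore not settled in these tissues, nor in anterior oral and nasal tissue.

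Counts of genes called over all genes varied more. Posterior oral minus nasal gave 132, between 11 and 143 under other settings, anterior lateral minus medial 264, between 0 (run as a covariate) and 319 and 160 with the block, posterior minus anterior 286, between 144 and 485, and posterior lateral minus medial 0 to 26. Anterior oral minus nasal gave 0 to 6. Leaving out 1 library gave 12 to 57, 55 to 195 and 231 to 414 in the first 3. The median difference of all genes passed 0.1 in posterior lateral minus medial with no minimum (0.15), with run as a covariate (0.14) and without posterior medial replicate 3 (0.11), and in anterior oral minus nasal without anterior oral replicate 1 (0.10).

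Depth limits Ebf2 most: at about 25.3 reads in the median library, its posterior medial values stand for 0 to about 3.4 reads.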
